A study of Mus musculus with 8 samples.

Results

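Cells in which Etv2 was switched on were compared with cells that lack Etv2, using chromatin accessibility in sorted cells of day 4 mouse embryoid bodies, which are aggregates of differentiating embryonic stem cells. OE SP denotes PDGFRalpha-FLK1+ cells of the iETV2 line, given doxycycline at 2 µg/ml from day 2.5. KO DP denotes cells of a line with Etv2 knocked out, sorted as PDGFRalpha+FLK1+. These 2 groups hold 4 of the 8 libraries of the study, 2 in each group. The other 4 come from wild-type A2lox.Cre cells, 2 from the PDGFRalpha+FLK1+ gate (WT DP) and 2 from the PDGFRalpha-FLK1+ gate (WT SP). They place the wild type between the ends, and they also enter the filter and the spread behind each SE and p-value. All regions with a mean of at least 10 normalized reads over the 8 libraries were compared, which left 167573 of 168842 regions. OE SP and KO DP differ in Etv2, in stem cell line, in doxycycline and in sort gate, and these cannot be told apart. The labels state neither whether a line is a single clone nor whether replicate libraries started from different cultures. The p-values therefore refer to the spread among these libraries, which may be technical only.

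Etv2 is a transcription factor of the ETS family, whose members bind DNA at sites built around GGAA. It is needed for the formation of endothelium and blood from mesoderm that carries FLK1, the VEGF receptor encoded by Kdr. PDGFRalpha, the receptor encoded by Pdgfra, is kept on paraxial and cardiac mesoderm. An ATAC signal counts how often the Tn5 transposase cut within a region, so a high value marks open chromatin at promoters or enhancers and not the amount of a transcript. These are bulk libraries, in which fewer cells with an open region and less opening per cell cannot be told apart.

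Some of the largest differences lay at promoters. The 250 bases before 6 transcription starts are shown as examples, because each of these starts lay in a region that changed, with 4 rises (Tie1, Egfl7, Erg and Tek) and 2 falls (Mesp2 and Msgn1). They come from RefSeq, build GRCm38.p6, and are written 5′ to 3′ along the strand of the gene. Capitals mark AGGAAG or CCGGAAG, the ETS motifs searched, on either strand, so CTTCCT is a match on the opposite strand. The promoters lie at chr4:118489850-118490099 on the minus strand for Tie1, chr2:26583615-26583864 on the plus strand for Egfl7, chr16:95459349-95459598 on the minus strand for Erg, chr4:94739039-94739288 on the plus strand for Tek, chr7:79810477-79810726 on the plus strand for Mesp2 and chr12:11208949-11209198 on the minus strand for Msgn1. Tie1, Egfl7, Erg and Msgn1 each hold 1 match, and Tek and Mesp2 hold 0 in these bases, so matches occur at rises and at a fall.
Tie1: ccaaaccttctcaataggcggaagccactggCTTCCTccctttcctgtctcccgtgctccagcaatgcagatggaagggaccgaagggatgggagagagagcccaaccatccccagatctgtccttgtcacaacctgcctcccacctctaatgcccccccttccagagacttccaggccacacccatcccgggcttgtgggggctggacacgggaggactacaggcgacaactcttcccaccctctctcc
Egfl7: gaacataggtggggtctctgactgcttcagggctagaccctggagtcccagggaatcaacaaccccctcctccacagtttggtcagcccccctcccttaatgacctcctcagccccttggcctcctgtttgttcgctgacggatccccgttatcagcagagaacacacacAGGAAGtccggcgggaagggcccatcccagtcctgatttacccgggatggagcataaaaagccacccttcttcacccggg
Erg: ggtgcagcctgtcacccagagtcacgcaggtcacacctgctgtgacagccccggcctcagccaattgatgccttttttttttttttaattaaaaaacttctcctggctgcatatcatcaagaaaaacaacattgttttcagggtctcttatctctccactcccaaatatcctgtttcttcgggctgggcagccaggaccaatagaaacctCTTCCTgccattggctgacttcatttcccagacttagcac
Tek: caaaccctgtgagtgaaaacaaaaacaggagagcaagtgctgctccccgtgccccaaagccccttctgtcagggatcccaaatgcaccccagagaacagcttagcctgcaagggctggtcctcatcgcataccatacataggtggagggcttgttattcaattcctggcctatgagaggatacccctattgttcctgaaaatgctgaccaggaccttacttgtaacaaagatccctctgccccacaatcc
Mesp2: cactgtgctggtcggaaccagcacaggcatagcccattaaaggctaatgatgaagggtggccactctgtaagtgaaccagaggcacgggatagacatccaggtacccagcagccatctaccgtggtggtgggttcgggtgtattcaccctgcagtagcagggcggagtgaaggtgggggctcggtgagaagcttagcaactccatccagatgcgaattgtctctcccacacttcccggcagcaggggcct
Msgn1: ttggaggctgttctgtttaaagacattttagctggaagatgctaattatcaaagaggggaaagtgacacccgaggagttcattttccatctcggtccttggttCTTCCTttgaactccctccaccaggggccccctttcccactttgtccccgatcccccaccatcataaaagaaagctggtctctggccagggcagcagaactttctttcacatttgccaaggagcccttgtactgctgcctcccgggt

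At Etv2 itself, on chromosome 7, the libraries labelled knockout lacked signal in 2 of 3 regions. A region inside Etv2 (chr7:30634628-30635028) held 0.840 and 0 normalized reads in the KO DP libraries and 425 and 645 in the OE SP libraries. WT DP held 563 and 611 there, and WT SP 475 and 493, so the OE SP values overlapped those of the wild type and do not check the label of induction. The recovered whole reads were 1 in KO DP and 1074 in OE SP, a ratio of 1024 with an exact 95% interval of 183 to 40477 for counting error. A second region in the gene (chr7:30633790-30634190) held 0 reads in both KO DP libraries and 152 in OE SP, which is at least 48.3-fold higher when a floor of 3 reads over the group is used. The third region, at chr7:30636355-30636755, was open in the knockout, with 200 and 193 in KO DP and 159 and 290 in OE SP. It was not called (log2 change 0.13, SE 0.24, adjusted p = 0.662), and the OE SP libraries fell on opposite sides of KO DP. Without OE SP replicate 1 its change was 0.55 and without OE SP replicate 2 it was -0.29.

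Over all regions, 58.0% were called at an adjusted p below 0.05 with limma, with 42164 regions (25.2%) higher in OE SP and 55055 (32.9%) lower. At a size of at least 2-fold, 27660 regions (16.5%) rose and 41905 (25.0%) fell, and at least 4-fold changes numbered 10769 (6.43%) and 13333 (7.96%). The groups did not overlap, with both OE SP values above both KO DP values, in 60049 regions (35.8%), and lay the other way round in 68635 (41.0%). The excess of falls over rises depended on the setting, with 54857 rises and 54484 falls without OE SP replicate 1, 50224 and 50690 with quantile normalization and 50628 and 53739 with median-of-ratios rescaling. In a fit of the 4 OE SP and KO DP libraries alone, 34227 regions were called higher and 48111 lower. The median log2 change of all regions was -0.05. All log2 changes are differences of group means of log2(value + 5), which understates the change of low regions.

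The induced libraries differed more from each other than those of the knockout. Recovered reads in regions were 18853733 and 12477601 in KO DP and 18818425 and 13124581 in OE SP. The chi-square per degree of freedom between the replicates was 1.22 in KO DP and 4.34 in OE SP, and the median region was lower in OE SP replicate 1 than in OE SP replicate 2 by a log2 difference of -0.20. Values are therefore given for each library for the regions described in full, and by their log2 change alone for the others.

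**Figure D1:**
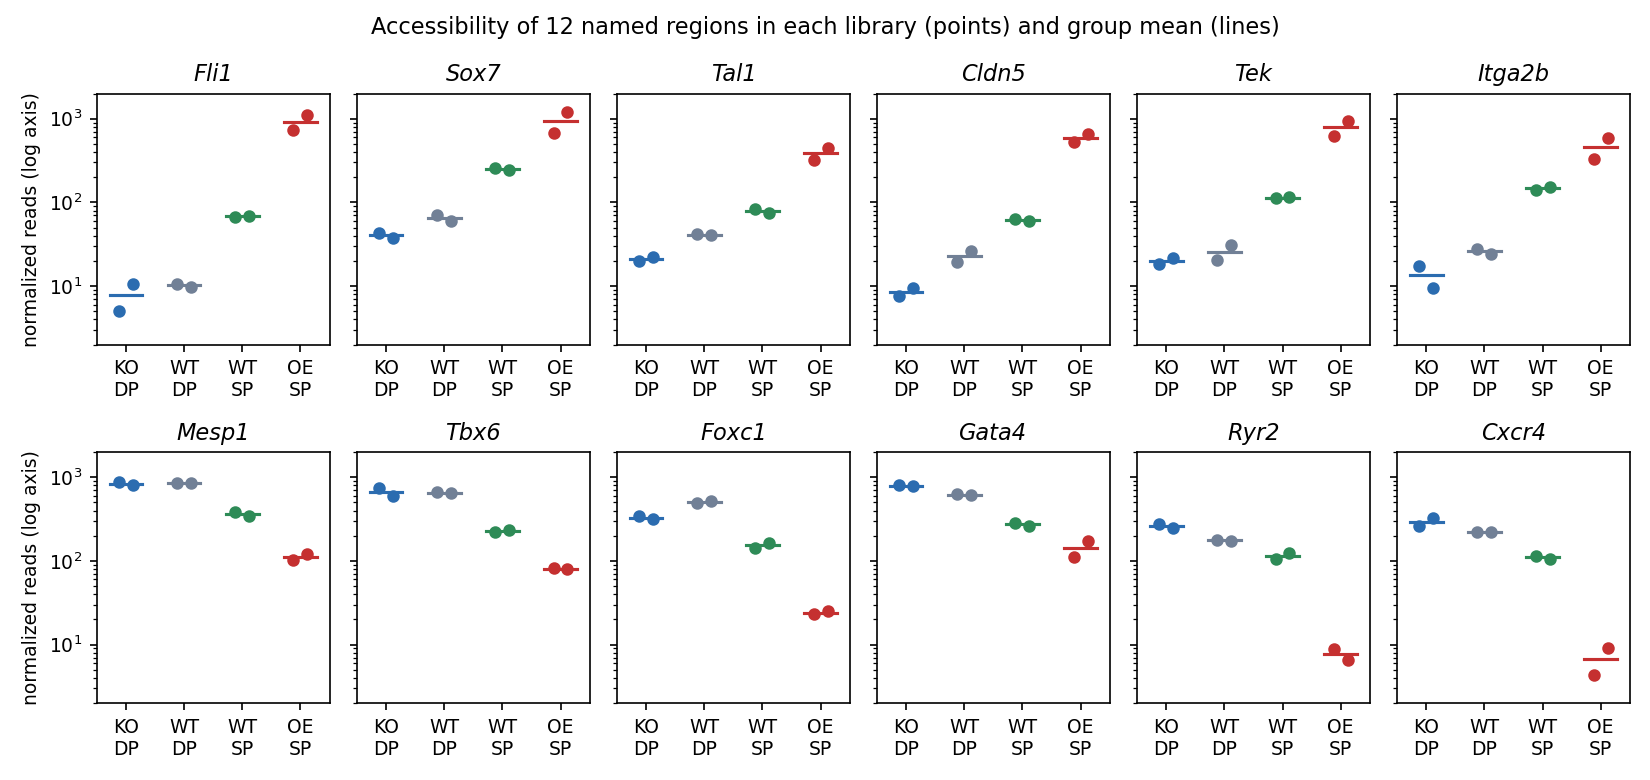
Normalized reads (log axis) in each of the 8 libraries (points) with the group mean (line) for the region of lowest adjusted p at 6 genes with a rise (upper row) and 6 with a fall (lower row). At each of the 12 regions the OE SP and KO DP points do not overlap, which follows from choosing regions by their adjusted p. Of all regions tested, 35.8% lay higher in OE SP without overlap and 41.0% lower.

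Among genes of vascular transcription factors, more regions rose than fell. In a list of 15 such genes, 128 of 280 regions rose (45.7%) and 60 fell (21.4%), against 25.2% and 32.9% of all regions, and the median lay 0.44 above that of all regions. Every gene of this list had at least 1 rise, but so did every gene of the arterial and Notch list, where falls outnumbered rises. Rises with no fall were found at 5 of the 15 genes. Fli1, an ETS factor of endothelium and blood, had a region 38.7 kb outside the gene (chr9:32582091-32582491) at 5.04 and 10.7 in KO DP and 733 and 1106 in OE SP (log2 change 6.17, SE 0.26, adjusted p = 4.73e-08). Of the 39 regions assigned to Fli1, 19 rose and 7 fell.

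Other ETS genes held large rises as well. A region in Ets1 (chr9:32673913-32674313) went from 10.9 and 8.32 in KO DP to 307 and 461 in OE SP (4.71, SE 0.26), and 12 regions of Ets1 rose while 15 fell. The Erg start shown above lay in a region (chr16:95459277-95459677) with 18.5 and 27.3 in KO DP and 284 and 455 in OE SP (3.73, SE 0.25), and 14 of 30 Erg regions rose while 6 fell. Elk3 had 20 rises and 1 fall in 25 regions. Its named region (chr10:93376364-93376764) held 14.3 and 11.9 in KO DP and 251 and 319 in OE SP (4.00, SE 0.22).

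The SoxF factors act in endothelial and arterial identity. All 4 regions of Sox7 rose, and the named one (chr14:63957742-63958142) held 42.8 and 38.0 in KO DP against 676 and 1189 in OE SP (4.31, SE 0.23). For Sox17, 8 of 11 regions rose and 2 fell, with 107 and 119 in KO DP and 409 and 637 in OE SP at chr1:4496429-4496829 (2.13, SE 0.20). For Sox18, 2 of 3 rose, and the named region (chr2:181673456-181673856) went from 68.8 and 54.7 to 177 and 215 (1.59, SE 0.19). The rise near Sox7 was thus the largest of the family among the named regions.

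Tal1, Lmo2 and Gata2 act together in blood and vessel progenitors. Tal1 had 7 rises and no fall in 8 regions, with 20.2 and 22.6 in KO DP and 323 and 445 in OE SP at chr4:115049762-115050162 (3.87, SE 0.21). Gata2 had 6 rises and no fall in 8 regions, with 51.2 and 46.4 against 336 and 474 at chr6:88203311-88203711 (2.91, SE 0.21). Lmo2 was mixed, with 6 rises and 5 falls in 17 regions. Its region of lowest adjusted p fell, from 121 and 107 to 23.3 and 23.6 (chr2:103902722-103903122, -2.06, SE 0.21).

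More regions rose than fell at genes for endothelial receptors and junctions, too. In the list of 26 genes, 166 of 377 regions rose (44.0%) and 97 fell (25.7%), with a median 0.42 above that of all regions. A region 43.3 kb from Cldn5, a tight junction protein of endothelium, had the largest rise of the named regions of this list apart from that in Flt1. It held 7.56 and 9.51 in KO DP and 533 and 656 in OE SP (chr16:18733122-18733522, 5.46, SE 0.22, adjusted p = 4.73e-08). In Flt1, a VEGF receptor, a region (chr5:147657844-147658244) went from 12.6 and 10.7 to 835 and 1160 (5.90, SE 0.21), and 23 of 42 Flt1 regions rose while 7 fell. In neither region did a KO DP value come near an OE SP value.

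Tie1 and Tek encode the TIE receptors of endothelial cells, Tek being the receptor of the angiopoietins. The Tie1 start (chr4:118489816-118490216) held 5.04 and 7.13 in KO DP and 312 and 461 in OE SP (5.12, SE 0.27), and the Tek start (chr4:94739199-94739599) held 18.5 and 21.4 against 627 and 947 (4.96, SE 0.24). Of 18 Tek regions, 12 rose and none fell, and of 8 Tie1 regions, 3 rose and none fell. Tek lies in a stretch of chromosome 4, 85 to 105 Mb, whose 1358 regions had a median change 0.51 above that of all regions. There the step from KO DP to WT DP lay 0.53 above all regions and that from WT SP to OE SP 0.07 above. At the Tek start WT DP held 20.4 and 31.4. How much of the change at Tek goes with this stretch was not tested.

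Further members of the list rose at single strong regions. The Egfl7 start shown above (chr2:26583618-26584018), of a secreted protein of growing vessels, went from 19.3 and 22.6 to 433 and 586 (4.30, SE 0.22), and 5 of 15 Egfl7 regions rose while 4 fell. Near Cdh5, which encodes VE-cadherin, a region (chr8:104095636-104096036) went from 13.4 and 14.3 to 332 and 501 (4.45, SE 0.26), and 17 of 36 regions rose while 6 fell. That part of chromosome 8, 100 to 110 Mb, had a median change 0.31 above all regions. There the step from KO DP to WT DP lay 0.25 above all regions and that from WT SP to OE SP 0.07 above. How much of the change at Cdh5 goes with this part was not tested. Pecam1 had 9 rises and 6 falls in 18 regions, yet its region of lowest adjusted p fell, from 73.9 and 85.6 to 8.02 and 3.94 (chr11:106636552-106636952, -2.97, SE 0.26).

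Most transcription starts of the endothelial list rose. Start regions were found for 13 of its genes, and 11 rose while 1 fell, against 26.6% rises and 6.15% falls of the 9232 regions that overlap a start. Beside Tie1, Tek and Egfl7, the following were picked after their values were seen. The Rasip1 start, of a regulator of vessel lumen formation, went from 12.6 and 26.1 to 177 and 397 (3.53, SE 0.36). The Robo4 start went from 79.8 and 76.1 to 387 and 438 (2.33, SE 0.19), and the start of Eng, a co-receptor for TGF-beta ligands, from 62.1 and 49.9 to 231 and 369 (2.29, SE 0.24). The fall was at Nrp1, a co-receptor for VEGF, from 345 and 411 to 163 and 288 (-0.78, SE 0.23, adjusted p = 0.00990).

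Genes of the arterial and Notch list were mixed, with 1 gene supplying many of the falls. Of 231 regions within 100 kb, 69 rose (29.9%) and 96 fell (41.6%), and the median lay -0.19 from that of all regions. Near the genes falls did not outnumber rises, with 41 rises (34.7%) and 38 falls (32.2%) in the 118 regions within 10 kb. Of all regions within 10 kb of their gene, 25.2% rose and 29.7% fell, so the share of falls was not below that of all. At 8 starts there were 4 rises and 0 falls, against 26.6% and 6.15% of all start regions. Cxcr4, a chemokine receptor, had 25 falls and 4 rises in 36 regions, and a region 27.4 kb away (chr1:128560430-128560830) went from 262 and 327 in KO DP to 4.38 and 9.20 in OE SP (-4.69, SE 0.22). In Notch1 the named region fell, from 238 and 216 to 15.3 and 19.7 (chr2:26482070-26482470, -3.37, SE 0.19), although 9 of 24 Notch1 regions rose and 5 fell. Regions of other genes of this list rose. Dll4, a Notch ligand of arterial endothelium, had 6 rises and no fall in 8 regions, with 12.6 and 10.7 against 87.5 and 80.1 at chr2:119318202-119318602 (2.42, SE 0.24). Near Notch4 a region (chr17:34561419-34561819) went from 6.72 and 5.94 to 142 and 146 (3.71, SE 0.24), and in Efnb2, the arterial ephrin ligand, one (chr8:8623472-8623872) went from 6.72 and 8.32 to 163 and 173 (3.79, SE 0.23).

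Blood genes had more rises than falls. In the list of 26 genes, 128 of 331 regions rose (38.7%) and 84 fell (25.4%), with a median 0.22 above all regions. That median was 0.40 without OE SP replicate 1 and 0.14 without OE SP replicate 2. In Vav1, which encodes an exchange factor active in blood cells, a region held 8.40 and 9.51 in KO DP and 698 and 1115 in OE SP (chr17:57290228-57290628, 5.99, SE 0.27). Itga2b, which encodes CD41, an early blood surface protein, had a region (chr11:102469978-102470378) that went from 17.6 and 9.51 to 333 and 586 (4.63, SE 0.28). Mecom had 21 rises and 14 falls in 52 regions, with 122 and 107 against 1069 and 1487 at its named region (chr3:30354190-30354590, 3.41, SE 0.19).

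Runx1, which is needed for the emergence of blood stem cells from endothelium, had more falls than rises. Its 66 regions held 12 rises and 30 falls, against 25.2% rises and 32.9% falls of all regions. The named region of Runx1 (chr16:92610475-92610875) went from 145 and 124 to 27.7 and 22.3 (-2.22, SE 0.19). A Runx1 start region was not called, with 601 and 567 in KO DP and 563 and 843 in OE SP (0.24, SE 0.18, adjusted p = 0.268). Gata1, the erythroid GATA factor, had 1 rise and 1 fall in 3 regions, the rise from 18.5 and 25.0 to 63.5 and 82.8 (chrX:7971300-7971700, 1.55, SE 0.24). The embryonic globin gene Hbb-bh1 had 1 region (log2 change 0.37) and the erythroid factor Klf1 had 1 (0.02), and neither was called.

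**Figure D2:**
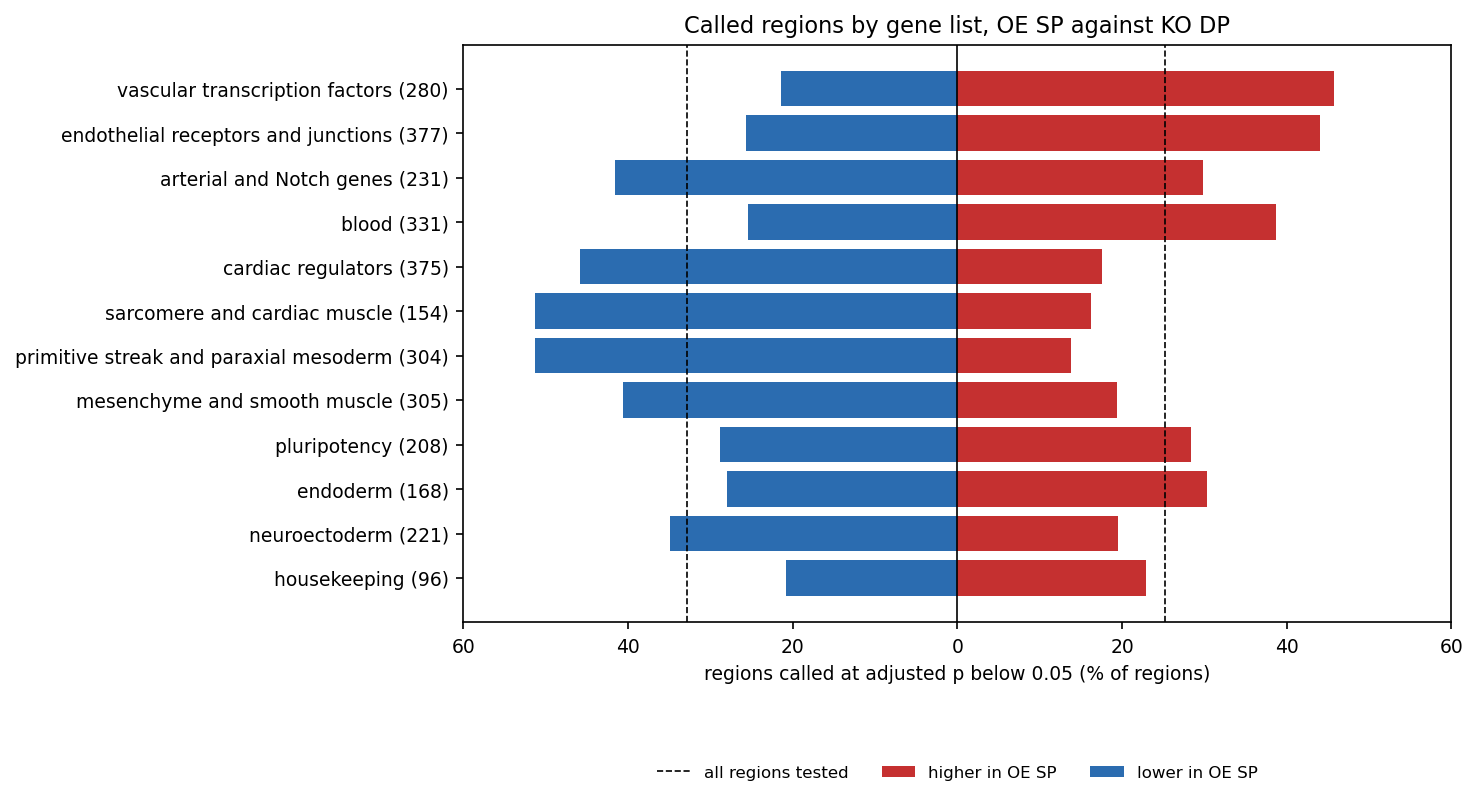
Share of regions within 100 kb called higher (right, red) or lower (left, blue) in OE SP than in KO DP for 12 gene lists, with the number of regions in brackets and dashed lines at 25.2% and 32.9%, the shares of all regions tested. Rises reach 45.7% for vascular transcription factors, and falls reach 51.3% for the sarcomere and the streak and paraxial mesoderm lists.

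Genes of the primitive streak and paraxial mesoderm had mostly falls. In this list 156 of 304 regions fell (51.3%) and 42 rose (13.8%), with a median -0.61 from all regions, and 9 genes had falls with no rise. Mesp1, the factor of early cardiac mesoderm, had 4 falls in 4 regions, with 870 and 801 in KO DP against 104 and 121 in OE SP at chr7:79789249-79789649 (-2.84, SE 0.15). Mesp2, a factor of somite formation, had 2 falls in 2 regions. At the Mesp2 start shown above (chr7:79810677-79811077) values went from 537 and 547 to 112 and 93.3 (-2.35, SE 0.15). The only region of Tbx6, which specifies paraxial mesoderm, fell from 744 and 601 to 81.7 and 80.1 (chr7:126785094-126785494, -2.97, SE 0.16).

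Named regions of further paraxial and streak genes fell. At the start of Msgn1, a target of Wnt signals in presomitic mesoderm, values went from 109 and 126 to 25.5 and 26.3 (chr12:11208831-11209231, -1.98, SE 0.19), and all 3 Msgn1 regions fell. Near Foxc1 they went from 343 and 314 to 23.3 and 25.0 (chr13:31797876-31798276, -3.52, SE 0.17). In Wnt3, a ligand of the early streak, they went from 269 and 233 to 15.3 and 15.8 (chr11:103804639-103805039, -3.63, SE 0.18). T, the streak factor brachyury, had a smaller change, with 1 rise and 2 falls in 9 regions. Its named region went from 47.9 and 65.4 to 29.9 and 26.3 (chr17:8435356-8435756, -0.88, SE 0.22, adjusted p = 0.00467), a call that was lost without KO DP replicate 2 (adjusted p = 0.0636).

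Cardiac genes had more falls than rises. Of 375 regions of cardiac regulators, 172 fell (45.9%) and 66 rose (17.6%), with a median -0.46 from all regions (-0.28 with a pseudocount of 20). Of 10 start regions of this list, 3 fell and 2 rose, against 6.15% and 26.6% of all start regions. In Gata4, a factor of heart and endoderm, 17 of 26 regions fell and 3 rose, with 805 and 783 against 112 and 173 at chr14:63240103-63240503 (-2.47, SE 0.19). In Tbx5, a factor of the first heart field, 16 of 37 fell and 5 rose, with 125 and 150 against 21.2 and 25.0 at chr5:119807847-119808247 (-2.34, SE 0.19). Hand2 had 12 falls and 1 rise in 20 regions, with 230 and 232 against 52.5 and 61.8 (chr8:57314155-57314555, -1.93, SE 0.17). It lies in a part of chromosome 8, 55 to 60 Mb, with a median -0.62 from all regions. There the step from KO DP to WT DP lay -0.34 from all regions and that from WT SP to OE SP -0.08. How much of the change at Hand2 goes with this part was not tested.

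Isl1, which marks progenitors of the second heart field, had 10 falls and 4 rises in 20 regions. Its named region (chr13:116342275-116342675) held 181 and 151 in KO DP, 10.2 and 9.20 in OE SP (-3.53, SE 0.22), and 31.1 and 27.8 already in WT DP. Single regions of cardiac genes opened strongly instead. Near Fgf10, a growth factor of the second heart field, one (chr13:118834026-118834426) went from 4.20 and 2.38 to 214 and 365 (5.11, SE 0.28). Near Hand1 one (chr11:57850927-57851327) went from 5.04 and 7.13 to 132 and 105 (3.48, SE 0.25), while 13 of 24 Hand1 regions fell and 4 rose. Near Gata6 a region 45.7 kb away rose by 3.61 and near Hopx one rose by 4.74. Nkx2-5 had 6 falls and 1 rise in 10 regions, its named region at 36.1 and 42.8 against 22.6 and 17.1 (chr17:26865172-26865572, -0.84, SE 0.23, adjusted p = 0.00696), a call lost without KO DP replicate 2 (adjusted p = 0.0629).

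Sarcomere and cardiac muscle genes had 79 falls (51.3%) and 25 rises (16.2%) in 154 regions, with a median -0.66 from all regions (-0.44 with a pseudocount of 20 and -1.02 for regions with a mean of at least 30). All 6 regions of Myl7, an atrial myosin light chain, fell. The named one (chr11:5896806-5897206) held 386 and 332 in KO DP and 29.2 and 39.4 in OE SP (-3.22, SE 0.19). In Ryr2, the calcium release channel of heart muscle, 26 of 38 regions fell and 4 rose, with 278 and 246 against 8.75 and 6.57 at chr13:11754282-11754682 (-4.40, SE 0.19). Start regions were found for 9 genes of the list, and 7 fell and none rose. Chosen after their values were seen, the Actc1 start went from 151 and 147 to 14.6 and 30.2 (-2.55, SE 0.27) and the Tnnt2 start from 158 and 178 to 12.4 and 63.1 (-2.33, SE 0.44). At Tnnt2 the OE SP libraries differed widely from each other but both lay under KO DP.

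Mesenchyme and smooth muscle genes had 124 falls (40.7%) and 59 rises (19.3%) in 305 regions, with a median -0.36 from all regions (-0.23 with a pseudocount of 20). Named falls lay in Cdh11 (-3.11), a cadherin of mesenchyme, Zeb2 (-3.05), Myh11 (-2.50), the smooth muscle myosin, and near Snai1 (-2.80), a repressor of epithelial genes. At the Snai1 region values went from 259 and 214 to 21.9 and 39.4. The Zeb2 start rose instead, from 45.3 and 51.1 to 91.2 and 90.7 (0.85, SE 0.20). Of 10 start regions of this list, 2 rose and 1 fell, against 26.6% and 6.15% of all start regions. Twist1 had 1 rise and 1 fall in 4 regions.

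The other lists held pluripotency, endoderm, neuroectoderm and housekeeping genes. Pluripotency genes had 59 rises and 60 falls in 208 regions and a median -0.03 from all regions, with falls at the named regions of Pou5f1 (-1.87), Nanog (-1.95) and Prdm14 (-2.34). A region 30.6 kb from Dppa4 (chr16:48252785-48253185) rose from 6.72 and 5.94 to 498 and 865 (5.87, SE 0.25). Of 12 start regions of the pluripotency list, 4 rose and 1 fell, against 26.6% and 6.15% of all start regions. Endoderm genes had 51 rises and 47 falls in 168 regions, neuroectoderm genes 43 and 77 in 221, and housekeeping genes 22 and 20 in 96. For the pluripotency, endoderm and housekeeping lists, which of the counts was larger changed under some rescalings or with a library left out. Housekeeping rises were 14 to 37 when single libraries were left out, the highest without OE SP replicate 1 and the lowest without KO DP replicate 2. The housekeeping list included a region 73.2 kb from Ywhaz that rose by 3.78. Named regions of the endoderm list rose in Cubn (4.61), an endocytic receptor, and near Hhex (4.43), a homeobox factor also in the vascular and blood lists, and fell in Lama1 (-3.59), a laminin chain. In the neuroectoderm list they fell in Ncam1 (-3.78), a neural adhesion molecule, and near Sox3 (-2.92) and Sox1 (-2.74), and rose near Pax6 (3.35). Of 8 neuroectoderm start regions, 1 rose and 0 fell.

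Sets of markers for cell types that either gate could hold were summed, and each marker gene had at least 1 region. The summed values over all regions of 6 endothelial markers were 4004 and 3980 in KO DP and 8867 and 12321 in OE SP, with 56 rises and 16 falls in 103 regions. Those of 4 cardiac markers were 4338 and 4175 against 1494 and 2329 (4 rises and 20 falls in 28 regions), and those of 4 paraxial markers 3221 and 3088 against 1557 and 2128 (6 and 13 in 25). Those of 4 markers of undifferentiated stem cells were 4053 and 3708 against 3795 and 4344, so these groups overlapped. The summed blood markers were 8296 and 8035 in KO DP against 5804 and 9131 in OE SP, where the induced libraries fell on both sides of the knockout. Regions of these 6 markers, Runx1 among them, had 19 rises and 32 falls in 83. In the longer blood list rises outnumbered falls. How far the makeup of the sorted cells sets the gene results was not tested.

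At the genes of the sort markers, regions moved both ways. Kdr had 14 rises and 20 falls in 43 regions. One region inside the gene rose from 24.3 and 7.13 to 576 and 970 (chr5:75962170-75962570, 5.32, SE 0.36) and another fell from 460 and 376 to 15.3 and 18.4 (chr5:75954181-75954581, -4.27, SE 0.20). The Kdr start was open in both groups and was not called, with 356 and 333 in KO DP and 380 and 519 in OE SP (0.36, SE 0.17, adjusted p = 0.0812). Both gates take FLK1+ cells. Pdgfra, whose protein is on KO DP and not on OE SP cells by the sort, had 8 rises and 12 falls in 28 regions, with 686 and 638 against 108 and 129 at chr5:75149925-75150325 (-2.44, SE 0.16). Differences at Pdgfra cannot be told apart from the sort.

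By size alone, the largest rises mixed known vascular and blood genes with others. The rise near Dnah8 (chr17:30878619-30879019) went from 7.56 and 5.94 to 956 and 937 (6.34, SE 0.22), one near Cyp4a10 (chr4:115546208-115546608) from 5.04 and 7.13 to 566 and 1027 (6.12, SE 0.26), and one in Prdm15 (chr16:97819503-97819903) from 6.72 and 9.51 to 647 and 1029 (5.98, SE 0.25). A region 74.7 kb from Gm33989 held 0 reads in KO DP and 970 in OE SP, at least 308-fold higher. These regions differed in the wild type. At the Gm33989 region WT DP held 306 and 268, while at Prdm15 it held 4.85 and 3.59. The region near Gm33989 was thus open in all 6 libraries other than those of the knockout line.

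The 8 falls named by size were all open in the knockout line and low in the other 6 libraries, with wild-type positions (0 at KO DP, 1 at OE SP) of 0.80 or more. At the Hprt start (chrX:52987879-52988279) KO DP held 367 and 286, and OE SP, WT DP and WT SP held 0 in all 6 libraries. Its 678 reads in KO DP against 0 in OE SP made OE SP at least 237-fold lower. Regions in Dchs2 (469 reads against 0, at least 164-fold lower) and near Cndp2 (749 against 0, at least 262-fold lower) also held 0 in all 4 wild-type libraries. At 5730507C01Rik KO DP held 778 and 666, with 9.48 and 10.5 in OE SP and 2.91 to 10.9 in the wild type. In these regions the KO DP libraries stood apart from the wild type as well as from OE SP. The A2lox parental line carries an exchange cassette at Hprt. Whether values of 0 in these regions mark closed chromatin was not tested.

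To see where the wild type lies, each region with a call of at least 2-fold was given such a position, 0 at the KO DP mean and 1 at the OE SP mean on the log2(value + 5) scale. The regions were chosen on the 2 ends, so positions are a description. In regions that rose, WT DP had a median position of 0.07 and WT SP 0.31. In regions that fell the medians were 0.05 and 0.28. These values depended on the scale, and over the pseudocounts, filters and rescalings tried WT DP ran from 0.045 to 0.094 in rises and 0.031 to 0.094 in falls, and WT SP from 0.199 to 0.403 and 0.217 to 0.410. By these medians, wild-type double positive cells lay near the knockout, and wild-type single positive cells lay between the ends but nearer to the knockout. Single regions often differed from this. The order KO DP, WT DP, WT SP, OE SP held in 46.5% of rises and 32.8% of falls. WT DP lay below 0, beyond the knockout, in 36.3% of rises and 41.7% of falls, and WT SP in 12.2% and 23.4%.

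The 3 steps from KO DP to WT DP, WT DP to WT SP and WT SP to OE SP add up to the whole change by construction. Their medians were 0.14, 0.41 and 1.30 in rises and -0.09, -0.38 and -1.24 in falls. Both wild-type groups lay below position 0.25 in 37.7% of rises and 37.9% of falls, so in these regions most of the change separated OE SP from all other groups. Both lay above 0.75, where the knockout stands apart, in 609 rises (2.20%) and 888 falls (2.12%). Among changes of at least 16-fold the knockout stood apart in 5 of 572 rises and in 45 of 270 falls. By chromosome, the share of at least 2-fold changes in which it did so ran from 0.751% on chromosome 18 to 4.42% on chromosome 8, apart from chromosome Y (12 of 19).

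**Figure D3:**
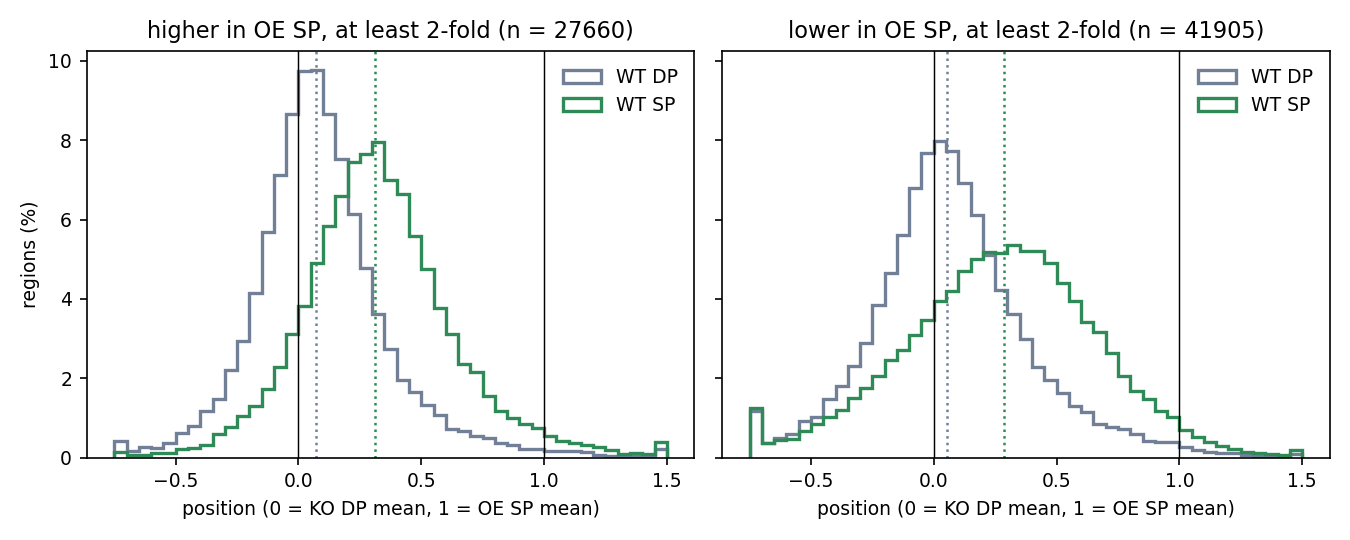
Distribution of regions (percent) over the position of WT DP (grey) and WT SP (green) between the KO DP mean (0) and the OE SP mean (1), for at least 2-fold rises (left, n = 27660) and falls (right, n = 41905), with dotted lines at the medians and values beyond the ends gathered in the outermost bins. WT DP peaks near 0 in both panels and WT SP peaks near 0.3.

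Named regions showed the range of positions. In Fli1 the WT DP values were 10.7 and 9.88 and the WT SP values 67.2 and 69.4, positions 0.05 and 0.41. Near Itga2b they were 28.2 and 24.3, and 141 and 153, positions 0.17 and 0.66. The Tie1 start reached only 35.6 and 26.8 in WT SP, position 0.33, and Emcn, a sialomucin of endothelium chosen after its values were seen, held 8.40 and 3.57 at its start in KO DP, 6.11 and 10.9 in WT SP and 35.7 and 59.1 in OE SP. Among the falls, the named region of Myl7 was already low in WT SP (52.9 and 57.5, position 0.81), while that near Myocd, a cofactor of heart and smooth muscle genes, held 128 and 138 in KO DP, 134 and 123 in WT SP (position 0.01) and 14.6 and 10.5 in OE SP. In Msgn1 and Mesp2 WT DP lay above KO DP, at 242 and 243 and at 829 and 785, outside the interval between the ends.

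Genes outside the lists were then read off as the largest changes with WT DP below position 0.25, a rule set after values were seen. Rises of this kind lay in Sorcs2 (10.9 and 13.1 to 712 and 1179, 5.76), near Gpr39 (5.76) and near Batf3 (5.52). Falls lay in Kcnd3 (699 and 576 to 9.48 and 19.7, -5.08), a potassium channel, in Tenm2 (736 and 628 to 15.3 and 17.1, -5.01) and Tenm4 (-4.88), teneurins that act in cell adhesion, and in Glis1 (-4.97), a zinc finger factor. In Tenm2 WT SP held 97.7 and 75.3 and in Kcnd3 145 and 191, both between the ends.

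Rises and falls were spread differently over the genome. Within 1 kb of a gene end, which means either end of a protein-coding gene, 25.4% of 19401 regions rose and 12.3% fell. Beyond 100 kb from a gene end 24.0% of 27846 regions rose and 43.8% fell, and the classes between had 28.4% and 36.3% falls. The share of rises of any size was thus near the 25.2% of all regions in each class, and falls became more frequent with distance. Rises of at least 2-fold were rarer near gene ends, with 1304 of 19401 regions within 1 kb and 5291 of 27846 beyond 100 kb. Falls of that size numbered 1401 and 10015. The median log2 change was 0.21 within 1 kb and -0.46 beyond 100 kb. Within 1 kb it was 0.34 without OE SP replicate 1 and 0.08 without OE SP replicate 2, and beyond 100 kb it was -0.77 for regions with a mean of at least 30 and -0.28 with quantile normalization. Of 9232 regions overlapping a transcription start, 368 rose and 236 fell by at least 2-fold. Rises near gene ends were small and their number rested on single libraries, with 10100 without OE SP replicate 1 and 2262 without KO DP replicate 2 against 4934 with all.

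**Figure D4:**
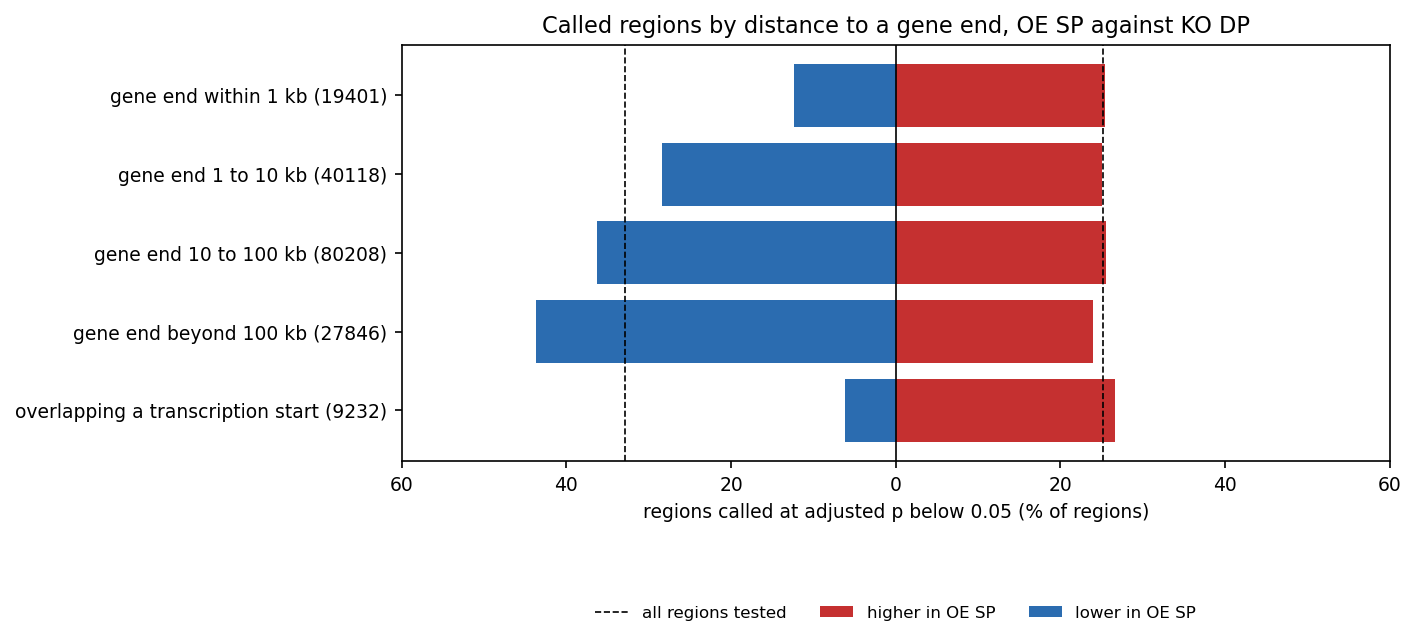
Share of regions called higher (right, red) or lower (left, blue) in OE SP than in KO DP by distance to the nearest protein-coding gene end and for regions overlapping a transcription start, with numbers of regions in brackets and dashed lines at the shares of all regions. Falls grow from 12.3% within 1 kb to 43.8% beyond 100 kb, while rises of any size stay between 24.0% and 26.6%. Rises of at least 2-fold, not drawn apart, were 1304 of 19401 regions within 1 kb and 5291 of 27846 beyond 100 kb.

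Promoter sequences of 300 bases, 250 before to 50 after the start, were searched on both strands for short motifs at the 9232 start regions. AGGAAG, an ETS motif as in the Tie1, Egfl7 and Erg promoters above, was in 63.0% of the 368 promoters with a rise of at least 2-fold. It was in 30.2% of the 6209 not called, in 38.1% of the 236 with a fall of at least 2-fold and in 35.4% of all 32851 promoters. CCGGAAG, the other ETS motif searched, was most frequent in promoters not called, at 17.8%, with 8.42% of the rises and 3.81% of the falls, against 8.86% of all promoters. A motif match is a description and not a binding site.

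GC content differed between the sets, with medians of 52.5% in rises, 61.7% in those not called and 54.0% in falls. Within bins of GC content, a split chosen after the first shares were seen, AGGAAG was in 64.3% of rises and 35.4% of those not called below 50% GC. The shares were 65.2% and 34.7% from 50% to 60%, 48.9% and 29.5% from 60% to 70%, and 68.4% and 20.6% above that, where the rises are 19 promoters. Rises thus held AGGAAG more often than promoters not called in each of the 4 bins. CCGGAAG was in 6.35% of rises and 9.84% of those not called below 50% GC, and in 10.1% and 18.3% from 50% to 60%. From 60% to 70% it was in 4.44% and 19.8%, and above that in 15.8% and 15.1%. The GATA motif AGATAA was in 16.3% of rises, 5.81% of those not called and 19.9% of falls, against 11.2% of all promoters. Within GC bins the gap was smaller, with 23.0% of rises and 18.3% of those not called below 50% GC, and 15.2% and 8.74% from 50% to 60%. The T-box motif AGGTGTGA was in 2.45%, 0.773% and 4.66%, against 1.28% of all.

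The E-box, forkhead and TEAD motifs were searched as well. The E-box CANNTG was in 72.8% of rises, 63.7% of those not called and 76.7% of falls, against 72.3% of all promoters. The forkhead motif TGTTTAC was in 3.80%, 2.16% and 3.81%, against 3.65% of all, and the TEAD motif GGAATG in 16.8%, 11.8% and 14.4%, against 14.7% of all. TEAD and ETS motifs share the letters GGAA, but these are followed by T in GGAATG and by G in the ETS motifs searched. The same GGAA therefore cannot lie in matches of both.

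**Figure D5:**
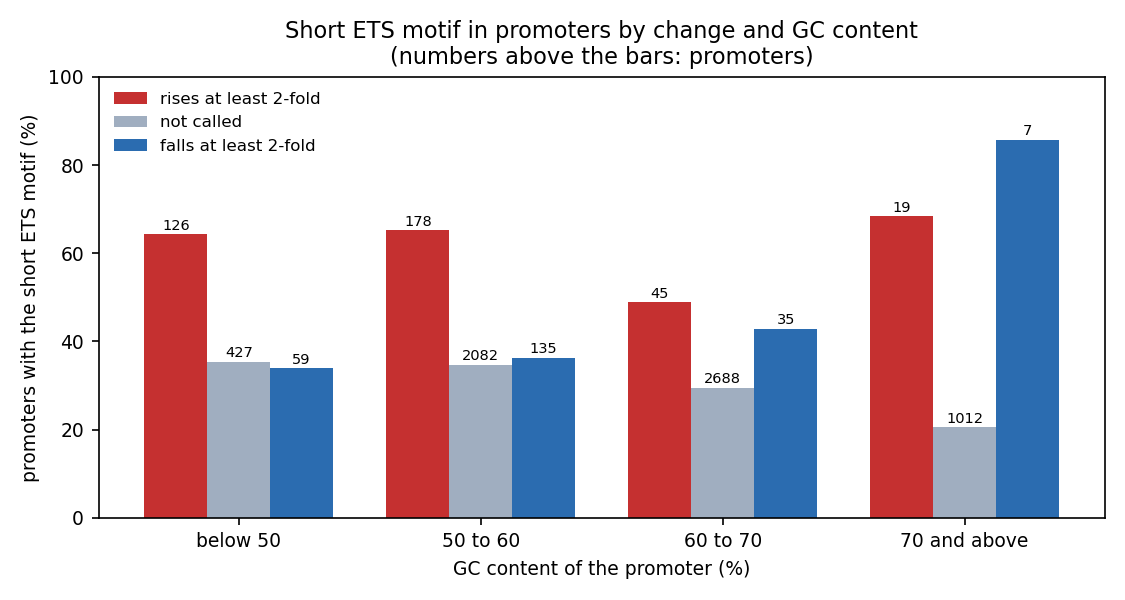
Share of promoters (percent) with AGGAAG on either strand, by GC content, for start regions with a rise of at least 2-fold (red), not called (grey) and with a fall of at least 2-fold (blue), with numbers of promoters above the bars. The red bars lie above the grey ones in all 4 bins, from 48.9% to 68.4% against 20.6% to 35.4%, and the blue bar of the last bin rests on 7 promoters.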

How the data were processed

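Omni-ATAC libraries of 50000 sorted cells each, sequenced as paired ends of 75 bp per the labels' protocols, were analysed from the authors' deposited table of regions, whose values are a signal of normalized reads. The tools named, per the submitters' processing notes, are Bowtie2, MACS2 and DiffBind 3.14.1, with build mm10. Settings, the Tn5 shift, duplicate handling and pooling for peak calls are not stated there. Regions were 401 to 1126 bp wide (median 401). A library's values are whole multiples of 1 step, so reads were recovered, and 100.0% of values came out whole at a tolerance of 0.01 reads. They were used for count tests in 7 libraries, without WT SP replicate 2, whose step is too near 1 for the recovery to be checked.

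The main test was limma 3.58.1 (R 4.3.3) on log2(value + 5), with 4 group means over 8 libraries. Variances were moderated along a trend with mean level (4 residual and 8.15 prior degrees of freedom). Regions with a mean of at least 10 were kept (167573, or 99.2%). Two-sided p-values were adjusted by Benjamini-Hochberg over all of these and called below 0.05. The test was also run on simulated data. Each region went to the nearest protein-coding gene within 100 kb (89.3% of regions) in a RefSeq gene table of GRCm38.p6. Named are all regions of Etv2, and those the results turn on at Hprt, Kdr and Pdgfra, the 8 largest rises and falls without overlap, up to 4 genes a list and a panel of 36 genes, each by its region of lowest adjusted p. Of the 16 regions named by size, those described are a selection. Some named items are not reported here. Rpl13a had no region, and the streak factor entered as T. Members, gene lists and named genes were chosen with earlier results of these data known.

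The replicate numbers did not pair the libraries, since the correlation of replicate differences between KO DP and OE SP was 0.06. Alternatives covered pseudocounts, filters, rescalings, left-out libraries, the replicate block, and edgeR 4.0.16 and DESeq2 1.42.0 on recovered reads. Intervals and floors cover counting error only, as PCR copies cannot be told from separate molecules here. Per library, the median over regions was 27.0 to 42.0 reads.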

Additional observations from a re-analysis of the deposited data

How the results depend on the processing

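Named regions were mostly chosen for a large change or a low adjusted p, so their stability does not describe that of other calls. Of 86 called regions among the 90 named outside Kdr and Pdgfra, 83 kept direction and call under every setting tried. The other 3, at T, Nkx2-5 and one Hprt region, lost the call under DESeq2 and without KO DP replicate 2, and the Hprt region also without OE SP replicate 2. At Hprt, regions that were not called turned sign with a library left out, one (chrX:53025464-53025864) with a range of -0.025 to 0.45 and the other (chrX:53028153-53028553) of -1.27 to 0.12. The third Etv2 region had 0.55 without OE SP replicate 1, where it was called, and -0.29 without OE SP replicate 2. Where a library is left out, the lone library of its group is assumed to vary like the other groups. The cause of these changes was not tested, other than that a stricter filter tests fewer regions.

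On recovered reads, edgeR called 48884 rises and 50902 falls and DESeq2 32182 and 38243. A mean of at least 30 left 22373 rises and 33115 falls. It left 6118 rises at 1 to 10 kb, 9658 rises and 17222 falls at 10 to 100 kb, and 2339 rises and 6282 falls beyond 100 kb. Rises in lists were then 83 for blood, 39 cardiac, 10 sarcomere, 24 streak, 31 mesenchyme, 33 pluripotency and 28 endoderm. Kdr had 12 falls, and Pdgfra 2 rises and 6 falls.

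Rises within 1 kb of a gene end numbered 8652 with median-of-ratios rescaling, 2536 in a fit of the 4 libraries alone, 8239 with edgeR, 3288 with DESeq2 and 2262 to 10100 with a library left out. Falls there numbered 1467 with DESeq2 and 1704 to 3760 with a library left out. With a library left out, rises were 25 to 54 for the streak list, 25 to 59 for neuroectoderm, 14 to 37 for housekeeping and 5 to 8 for Pdgfra. Pdgfra had 4 rises in the fit of 4 libraries and 4 with DESeq2.

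Positions moved with the scale. In the order pseudocount 1, pseudocount 20, mean of at least 30, median-of-ratios, quantile normalization and rescaling on the 10000 highest regions, the median position of WT DP in rises was 0.090, 0.045, 0.094, 0.046, 0.055 and 0.045. For WT SP in rises it was 0.348, 0.251, 0.403, 0.234, 0.258 and 0.199. In falls it was 0.040, 0.076, 0.031, 0.090, 0.094 and 0.086 for WT DP, and 0.251, 0.343, 0.217, 0.381, 0.366 and 0.410 for WT SP. With a library left out the ranges were 0.066 to 0.104 and 0.302 to 0.336 in rises, and 0.041 to 0.068 and 0.218 to 0.322 in falls. The spread these were judged by, over 8 choices of 1 library per group, replaced a narrower one after values were seen.

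With the replicate block, rises numbered 40939 and falls 54898. The correlation of replicate differences between KO DP and OE SP was 0.06, so the numbers were not taken to pair libraries. The block changed no call of a named region or count by over 1.5 times.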
